A study of Mus musculus with 30 samples.

Results

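Transcripts of 7 genes of cholesterol synthesis were followed in mouse liver over a year after heavy-ion irradiation. The genes were chosen by name as a set, with earlier results of these data known: Hmgcs1, Idi1, Fdft1, Sqle, Lss, Cyp51 and Dhcr7. All 7 were found among the 51826 gene identifiers of the count table, and all 7 passed the filter on low counts with 19685 genes tested. The tissue was the left lobe of the liver, frozen after collection. The mice were males of a strain labelled C57BL16, and their age is not given in the sources used here. The irradiated mice, called 56Fe livers here, received 0.2 Gy of iron-56 ions at 600 MeV/n, and the control livers came from mice that were not irradiated. Livers were taken 30, 60, 120, 270 and 360 days later, called months 1, 2, 4, 9 and 12, with 3 biological replicates in each of the 10 groups. No transgene or other agent is named for either arm.

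Cholesterol is built from acetyl-CoA in the cytosol and endoplasmic reticulum, and the liver is a main site of this synthesis. When sterols in the endoplasmic reticulum run low, the transcription factor SREBP2, encoded by Srebf2, is escorted to the Golgi by SCAP, cut, and sent to the nucleus. There it activates the genes of nearly every enzyme of the pathway and Insig1, whose protein holds SREBP2 back. NF-Y, which binds CCAAT sequences, works beside SREBP2 at many of these promoters.

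The members cover the early, middle and last steps of the pathway. Hmgcs1 (chromosome 13, 119690379 to 119708260) encodes the cytosolic HMG-CoA synthase, an early enzyme of the mevalonate pathway. Idi1 (chromosome 13, 8885501 to 8892451) encodes isopentenyl diphosphate isomerase, which makes the units of isoprenoid chains. Fdft1 (chromosome 14, 63145150 to 63179578) encodes squalene synthase, the first enzyme committed to sterols. Sqle (chromosome 15, 59315077 to 59331192) encodes squalene epoxidase, and Lss (chromosome 10, 76531588 to 76557138) encodes lanosterol synthase, which closes the rings. Cyp51 (chromosome 5, 4081145 to 4104746) encodes lanosterol 14-alpha-demethylase. Dhcr7 (chromosome 7, 143823145 to 143848410) encodes 7-dehydrocholesterol reductase, which makes cholesterol itself. All are protein-coding genes, with coordinates on GRCm38.

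Promoter sequences are shown for Hmgcs1 and Cyp51, whose levels moved together, and for Dhcr7, which followed another course. RefSeq windows on GRCm38.p6 run from 250 bases before a transcription start to 50 after it, and were found for 5 of the 7 members (Hmgcs1, Idi1, Lss, Cyp51 and Dhcr7). The Hmgcs1 window is chr13:119690101-119690400 on the plus strand and the Cyp51 window is chr5:4104648-4104947 on the minus strand. Dhcr7 has 3 windows, and the one shown is chr7:143829964-143830263 on the plus strand. Capitals mark TCACNNCA, a short form of the sterol regulatory element, and CCAAT, each on either strand, where CCAAT on the opposite strand reads ATTGG.
Hmgcs1: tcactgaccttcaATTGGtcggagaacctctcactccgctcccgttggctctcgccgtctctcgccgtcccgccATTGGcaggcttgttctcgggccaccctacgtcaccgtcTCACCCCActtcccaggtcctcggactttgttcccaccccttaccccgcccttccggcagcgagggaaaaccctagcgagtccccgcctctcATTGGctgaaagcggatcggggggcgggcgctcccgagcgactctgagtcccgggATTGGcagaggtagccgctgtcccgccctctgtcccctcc
Cyp51: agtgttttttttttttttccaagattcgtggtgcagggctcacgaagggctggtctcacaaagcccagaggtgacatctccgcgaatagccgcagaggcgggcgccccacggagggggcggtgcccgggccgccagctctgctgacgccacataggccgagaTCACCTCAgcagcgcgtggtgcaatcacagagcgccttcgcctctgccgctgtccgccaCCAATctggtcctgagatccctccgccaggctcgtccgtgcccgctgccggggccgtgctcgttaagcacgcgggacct
Dhcr7: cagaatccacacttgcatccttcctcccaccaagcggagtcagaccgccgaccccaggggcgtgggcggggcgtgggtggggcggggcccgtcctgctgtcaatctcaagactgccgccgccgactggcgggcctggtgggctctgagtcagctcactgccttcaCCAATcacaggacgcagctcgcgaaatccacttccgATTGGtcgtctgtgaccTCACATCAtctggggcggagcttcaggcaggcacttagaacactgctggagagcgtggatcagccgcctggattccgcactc

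CCAAT was present in the windows of 5 of 5 members, against 41.1% of 27025 genes with a window. TCACNNCA was present for 3 of 5 (Hmgcs1, Cyp51 and Dhcr7), against 15.7% of genes. The longer form TCACNCCAC was found in Hmgcs1 alone among the members, 137 bases before the start, and in 1.44% of genes. CACGTG, an E-box that does not overlap the other motifs in these windows, was found in another Dhcr7 window and in 8.09% of genes. In the Hmgcs1 window the long and the short sterol motif begin at the same base, so they are 1 match counted under both spellings. The motifs were chosen with the sequences in view, so these shares describe letters in a window.

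Transcript levels are given as CPM, counts scaled to a common library total, with TMM factors, and differences as log2 fold changes with their standard error (SE) and a Benjamini-Hochberg adjusted p from edgeR. A gene was called at an adjusted p under 0.05. Counts at an unadjusted p under 0.05 are given without a share over all genes, so they have no background here. Library totals ranged from 7995248 to 20215995 counts, and each member had between 112 and 25190 reads in every library. Per kilobase of annotated exon, the median level over the 30 libraries was highest for Hmgcs1 at 121 CPM per kb, followed by Cyp51 at 54.1 and Fdft1 at 26.8. Sqle was at 15.6, Dhcr7 at 13.2, Idi1 at 7.97 and Lss at 7.31 CPM per kb. Exons of 5 members overlap a gene on the opposite strand, and the counting is not stated to use strand. Fdft1 shares 774 exon bases with Ctsb and Cyp51 shares 166 with Akap9, so reads in those bases cannot be assigned to 1 gene with certainty. In whole liver, fewer cells of a type and less RNA per cell cannot be told apart.

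Some libraries stood apart before any test. The non-coding RNA Gm26917 took 3.04% to 7.57% of counts in months 1 and 2 and 0.452% to 2.04% in months 4, 9 and 12. No batch is named in the labels, so the step from month 2 to month 4 cannot be told apart from this split. Summed hepatocyte markers (8 genes) lay between 38327 and 119944 CPM in every library. Replicate 1 of the 56Fe livers at month 9 held the highest level of all 30 libraries for 7 of 7 members, against 11.3% of 14420 genes with a mean of at least 1 CPM. The comparisons, group order and correlations between members that hold it are given with and without it.

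**Figure D1:**
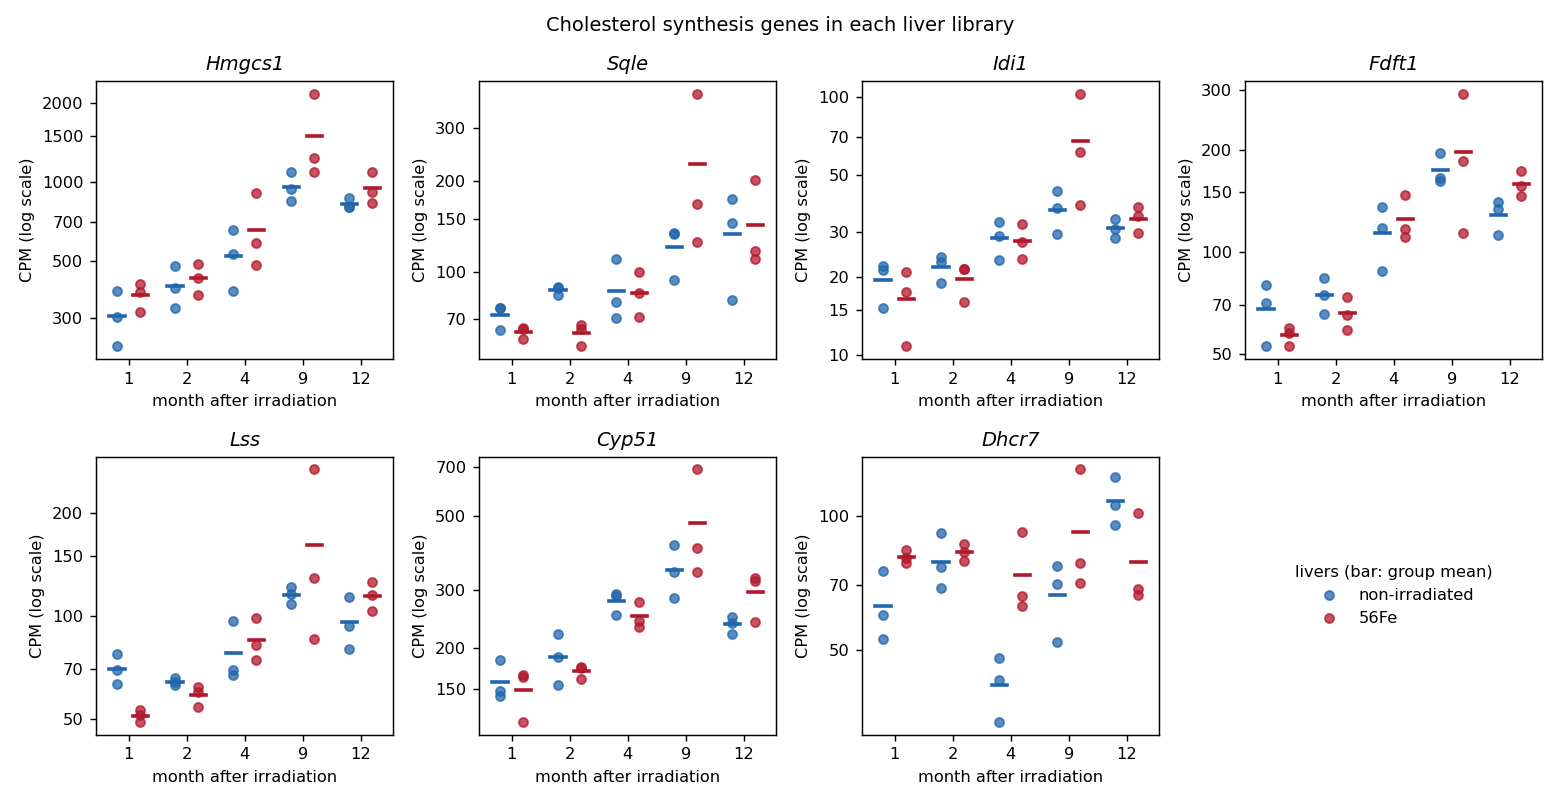
Normalised CPM (vertical axes, logarithmic) of the 7 members at each month after irradiation (horizontal axes), with 1 point per library and a bar at each group mean. Control livers are blue and 56Fe livers red. The highest point of each panel is 56Fe replicate 1 of month 9, for example 2175 CPM for Hmgcs1, and Dhcr7 is lowest in the control livers of month 4.

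The main pattern was a higher level in the later months for 6 of the 7 members, in both arms, with Dhcr7 as the exception. In control livers 6 of 7 members changed over the 5 months, all but Sqle (adjusted p = 0.0808), where 58.3% of all genes were called. In 56Fe livers 6 of 7 changed, all but Dhcr7 (adjusted p = 0.65), where 59% of all genes were called. With backgrounds this high, neither count is particular to the members. With the Gm26917 level as a covariate, 3 of 7 were called in control and 0 of 7 in 56Fe livers. Of all 19685 genes, 2409 and 104 were called with it. Without the covariate and without replicate 1 of month 9, 6 of 7 members were called in 56Fe livers. Hmgcs1 had adjusted p-values of 3.74e-06 in control and 7.81e-08 in 56Fe livers.

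Summed markers of several cell types differed between the early months 1 and 2 and the later months. Summed hepatocyte markers were at 47942 to 83934 CPM in control livers of months 1 and 2 and at 89785 to 119944 CPM in the later months, and at 38327 to 68581 CPM and 82875 to 106773 CPM in 56Fe livers. Summed erythroid markers (5 genes) went from 69.8 to 137 CPM early to 141 to 433 CPM late in control livers, and from 54.8 to 81.5 CPM to 109 to 260 CPM in 56Fe livers. Of these 5 genes, 4 in control and 5 in 56Fe livers were called higher from month 2 to month 4. Of all genes, 20.3% and 21.4% were called higher over that step. Of the 8 hepatocyte markers, 2 were called higher and 1 lower in control livers, and 3 higher in 56Fe livers. Summed stellate cell markers (6 genes) were at 217 to 319 CPM early and 365 to 562 CPM late in control livers, and at 228 to 270 CPM and 346 to 503 CPM in 56Fe livers. The early and late libraries did not overlap for these 3 cell types in either arm, and no marker was at 0 in all 3 libraries of a group. In control livers the hepatocyte sums also rose inside the early months. They were 47942 to 66454 CPM at month 1 and 71467 to 83934 CPM at month 2. The median log2 change of these 8 genes was 0.63 from month 1 to month 2 and 0.37 from month 2 to month 4. The part of these cell types in the members' values was not tested.

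Hmgcs1, the first enzyme of the set, showed the course most plainly. In control livers its libraries were at 303, 382 and 234 CPM at month 1 and at 476, 328 and 394 CPM at month 2. Month 4 gave 381, 653 and 528 CPM, month 9 gave 847, 935 and 1088 CPM, and month 12 gave 801, 799 and 864 CPM. The libraries of months 9 and 12 all lay above those of the earlier months. In 56Fe livers Hmgcs1 was at 407, 380 and 317 CPM at month 1 and at 368, 484 and 429 CPM at month 2. Month 4 gave 582, 906 and 482 CPM, month 9 gave 2175, 1231 and 1093 CPM, and month 12 gave 918, 1088 and 833 CPM. The 3 libraries of month 9 were the highest of this arm.

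Cyp51, which removes the first methyl group from lanosterol, peaked at month 9 as well. Control libraries were at 148, 184 and 143 CPM at month 1, and month 2 gave 220, 155 and 188 CPM. Month 4 gave 252, 286 and 291 CPM. They reached 338, 282 and 408 CPM at month 9 and were at 221, 238 and 248 CPM at month 12. The month 12 libraries lay below all those of month 9. The 56Fe libraries were at 166, 163 and 120 CPM at month 1, and month 2 gave 162, 175 and 175 CPM. Month 4 gave 241, 276 and 232 CPM, with no overlap with month 2. They were at 690, 339 and 401 CPM at month 9 and at 318, 325 and 240 CPM at month 12.

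When the 10 groups were ranked by mean, the 56Fe livers of month 9 stood highest for 6 of 7 members and second for Dhcr7. Without replicate 1 they were highest for 4 (Hmgcs1, Sqle, Idi1 and Cyp51), while the control livers of month 9 were highest for Fdft1 and Lss, and Dhcr7 ranked 6. Neighbours in that order mostly did not separate. Of 9 neighbouring pairs of groups, 9 overlapped for Idi1, 8 each for Hmgcs1, Sqle, Cyp51 and Dhcr7, and 7 each for Fdft1 and Lss. The gaps lay between the early and the late groups for some members, as for Fdft1 and Cyp51.

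From month 1 to month 2, 0 of 7 members were called in either arm (0 at an unadjusted p under 0.05, and 0 by DESeq2 and limma voom), where 9.8% of all genes were called in control and 0.00508% in 56Fe livers. From month 2 to month 4, 3 of 7 were called in control livers, with 38.3% of all genes called (20.3% higher and 18% lower). Cyp51 rose on the log2 scale by 0.56 ± 0.20 SE (adjusted p = 0.025) and Fdft1 by 0.61 ± 0.22 SE (adjusted p = 0.0272), while Dhcr7 fell by 0.92 ± 0.20 SE (adjusted p = 0.000715). In 56Fe livers 3 of 7 rose over the same step, with 41% of all genes called and 21.4% called higher. They were Fdft1 (0.92 ± 0.22 SE, adjusted p = 0.00119), Cyp51 (0.55 ± 0.20 SE, adjusted p = 0.0252) and Hmgcs1 (0.62 ± 0.24 SE, adjusted p = 0.0392). In each arm 3 of 7 is near the 38.3% and 41% of all genes called in either direction. In 56Fe livers all 3 were higher, above the 21.4% of all genes called higher, a difference not tested. The count was 1 of 7 in control livers without replicate 2 of month 2 or without replicate 2 or 3 of month 4. It was 1 of 7 in 56Fe livers without replicate 1 or 3 of month 2 or without replicate 2 of month 4. With the Gm26917 level as a covariate 0 of 7 were called in either arm, and 0 of all genes, and Dhcr7 in control livers turned to 0.45 (adjusted p = 1). Over this step in control livers the median of all genes was -0.12 on the log2 scale with TMM factors and as low as -0.36 with another scaling.

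Fdft1, the branch point to sterols, illustrates the step. Its control libraries were at 74.6, 65.8 and 83.7 CPM at month 2 and at 88.0, 136 and 118 CPM at month 4. Its 56Fe libraries were at 65.2, 73.8 and 59.0 CPM at month 2 and at 117, 148 and 111 CPM at month 4. The libraries of the 2 months did not overlap in either arm.

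From month 4 to month 9, both arms had higher values for 7 of 7 members. In control livers 0 of 7 were called, where edgeR called 0% of all genes. At an unadjusted p under 0.05 there were 4 (Hmgcs1, Dhcr7, Fdft1 and Lss), DESeq2 and limma voom called 0 members, and the median log2 fold change was 0.57, against 0.02 over all genes. In 56Fe livers 5 of 7 were called, all higher, where 3.74% of all genes were called and 2.38% were called higher. Sqle rose on the log2 scale by 1.42 ± 0.32 SE (adjusted p = 0.0178), Idi1 by 1.28 ± 0.26 SE (adjusted p = 0.0101) and Hmgcs1 by 1.19 ± 0.24 SE (adjusted p = 0.00944). Cyp51 rose by 0.93 ± 0.20 SE (adjusted p = 0.0105) and Lss by 0.91 ± 0.24 SE (adjusted p = 0.0302). Fdft1 (0.66, adjusted p = 0.0841) and Dhcr7 (0.32, adjusted p = 0.402) did not pass.

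The calls in 56Fe livers depended on single libraries. Without replicate 1 of month 9, 0 of 7 members were called and the median fell to 0.60, close to the control median of 0.57. Hmgcs1 was then at 0.87 and Sqle at 0.82 on the log2 scale. The count was also 0 without 56Fe replicate 1 or replicate 3 of month 4, and 3 without replicate 2 of month 4. It was 0 when the compared libraries were fitted alone. The count over all genes moved as well, from 736 with all libraries to between 31 and 1821 with 1 library left out. With the compared libraries alone it was 0. The Gm26917 share was 0.827% to 0.985% in 56Fe livers of month 4 and 0.460% to 0.585% at month 9, with no overlap. With that level as a covariate 3 of 7 members were called (Cyp51, Sqle and Hmgcs1), in a fit that can hardly tell the month from the level. Whether the rise differed between the arms over this step was not tested on its own.

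The other members show how far that library lay from its group. Sqle was at 391, 126 and 168 CPM in the 56Fe livers of month 9, while the controls had 134, 94.3 and 135 CPM. Idi1 was at 103, 38.1 and 61.2 CPM against 37.0, 29.5 and 43.1 CPM, and Lss at 268, 129 and 85.6 CPM against 121, 109 and 116 CPM. In each gene replicate 1 was the high one. For Sqle and Idi1 1 of the other 2 lay within the range of the controls, and for Lss they lay on either side of it. Replicate 1 was 2.66-fold above the mean of the other 2 for Sqle, 2.50-fold for Lss and 2.08-fold for Idi1. For Fdft1, Hmgcs1, Cyp51 and Dhcr7 it was 1.96, 1.87, 1.87 and 1.71-fold above.

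The same library was high across much of the pathway. It was the highest of 30 for 6 of 14 other synthesis enzymes and for 4 of 7 further SREBP2 targets measured at 1 CPM or more. It was the highest for 0 of 10 genes of SREBP processing and sterol-regulated protein degradation, called control genes here. The same count was 0 of 14 for genes of sterol removal. It was 1 of 10 for fatty acid synthesis genes, 2 of 8 for hepatocyte markers and 2 of 3 for bile duct cell markers measured at that level. Over all genes with a mean of at least 1 CPM the share was 11.3%. In lists this short, a count of 0 cannot be told apart from that share. The median log2 difference of replicate 1 from the other 2 libraries was 0.54 for the other synthesis enzymes and 0.52 for the further targets. It was 0.53 for fatty acid synthesis genes and 0.40 for hepatocyte markers, so the excess was not confined to sterol genes. For control genes it was -0.061 and for sterol removal -0.002. These medians have no value over all genes here. Insig1, which holds SREBP2 back, was counted with the targets. Msmo1, a sterol-4-alpha-methyl oxidase, was at 808 CPM there, 2.40-fold above the other 2 libraries. Pmvk, phosphomevalonate kinase, was at 144 CPM, 2.74-fold above, and Insig1 at 1736 CPM, 1.95-fold above. Summed bile duct cell markers (5 genes) were at 132, 29.7 and 59.9 CPM in the 3 libraries and at 24.9 to 36.5 CPM in the month 9 controls, with 0 markers at 0 in all 3 libraries of either group. Most of the 132 was Spp1 at 121 CPM, while the duct keratin Krt19 was at 1.21 CPM, both named after their values were seen. Summed neutrophil markers (4 genes) were at 11.5, 1.20 and 5.68 CPM against 1.32 to 1.68 CPM in controls. Summed hepatocyte markers were at 92254, 100576 and 106773 CPM, lowest in replicate 1. Gene by gene, replicate 1 was the highest of the 3 for 5 of the 8 hepatocyte markers. Of all genes with a mean of at least 1 CPM, 38.2% were highest there. Summed endothelial markers (6 genes) were at 272 to 345 CPM against 383 to 435 CPM in the month 9 controls, and stellate markers at 355 to 432 CPM against 476 to 562 CPM, with no overlap. Kupffer cell markers (6 genes) were at 244, 149 and 407 CPM against 137 to 228 CPM. Their median log2 change from month 4 to month 9 in 56Fe livers was 1.17, and 1.29 without replicate 1, with 0 of 6 called by edgeR (4 at an unadjusted p under 0.05). The part of these cells in the result was not tested.

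**Figure D2:**
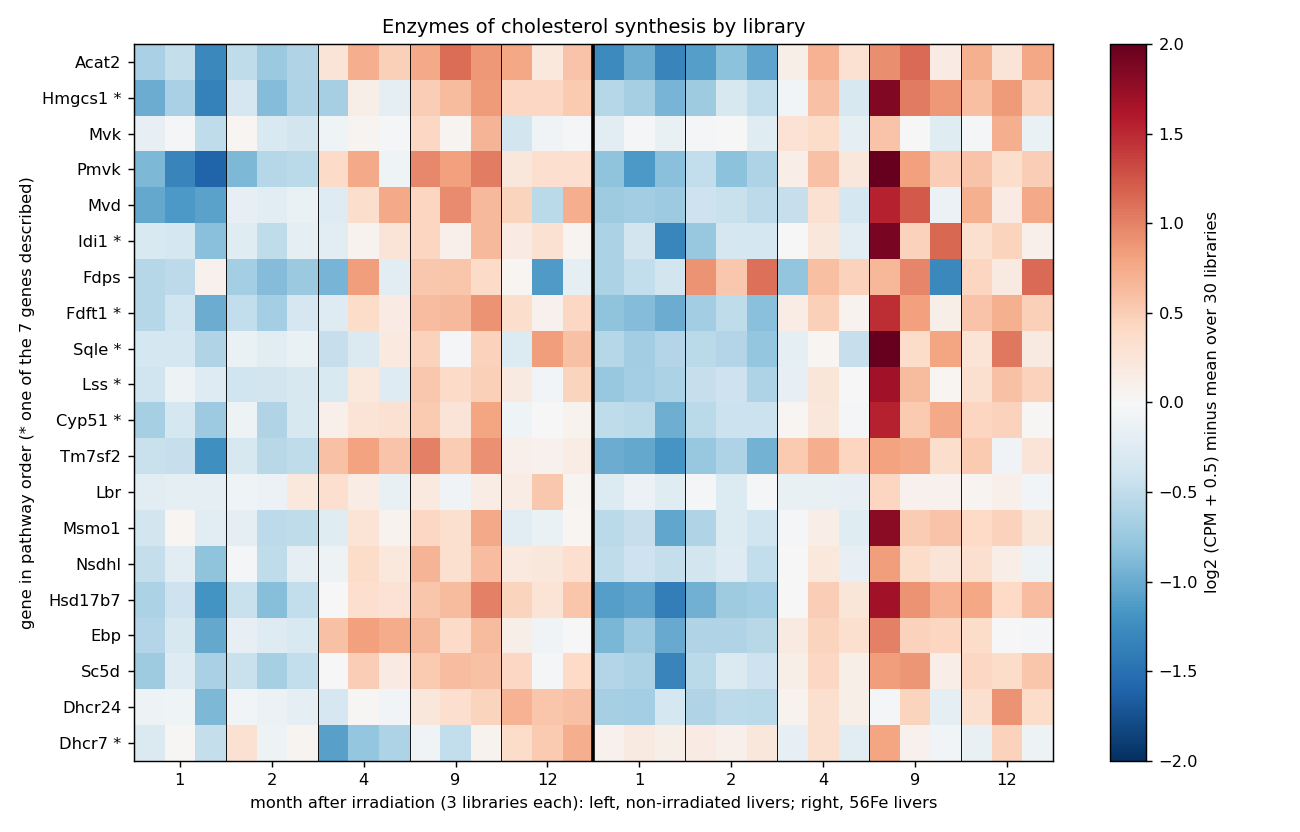
Enzymes of cholesterol synthesis in pathway order (rows, the 7 members marked with asterisks) in each of 30 libraries (columns, grouped by arm and month). Colour is log2 (CPM + 0.5) minus the mean of the gene over the 30 libraries, red above and blue below, with the scale ending at 2 in each direction. Most rows turn from blue to red after month 2, the first 56Fe column of month 9 is the deepest red in most rows, and Dhcr7 in the bottom row is blue in the control livers of month 4.

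From month 9 to month 12, control livers had 1 of 7 members called, with 15.9% of all genes called and 10.1% called higher. Dhcr7 rose by 0.70 ± 0.20 SE on the log2 scale (adjusted p = 0.0181), a call lost without control replicate 1 or 2 of month 9 or replicate 2 or 3 of month 12. The Gm26917 share was 0.452% to 0.526% in control livers of month 9 and 1.33% to 2.04% at month 12. With that level as a covariate Dhcr7 was at -0.11 (adjusted p = 0.976), and 0 of all genes were called. The shares of these months did not overlap, so that fit can hardly tell the month from the level. Without the covariate Cyp51 was at -0.54 ± 0.20 SE (adjusted p = 0.0587). In 56Fe livers 0 of 7 were called by edgeR, with 0.3% of all genes called. All 7 values were below 0 there, with a median of -0.66 against 0.04 over all genes. Without replicate 1 of month 9 the median was -0.065, with Lss at 0.059, Dhcr7 at 0.049 and Fdft1 at 0.045. With all libraries 5 had an unadjusted p under 0.05, DESeq2 called 2 (Idi1 and Cyp51) and limma voom 0. Of all genes DESeq2 called 509 there.

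Within months 4, 9 and 12, where the Gm26917 share was below that of months 1 and 2, 2 of 7 members changed in control livers (Dhcr7 and Hmgcs1), with 20.2% of all genes called. In 56Fe livers 4 of 7 changed (Idi1, Cyp51, Hmgcs1 and Sqle), with 2.93% of all genes called, and 0 of 7 did without replicate 1 of month 9 or replicate 1 of month 4, and 2 without replicate 3 of month 4. Month 12 against month 4 gave 2 of 7 higher in control livers, with 22.2% of all genes called and 12.6% called higher. Dhcr7 rose by 1.38 ± 0.21 SE (adjusted p = 6.98e-05) and Hmgcs1 by 0.66 ± 0.24 SE (adjusted p = 0.0484, lost without any 1 of 5 of the 6 libraries). In 56Fe livers the same comparison gave 0 of 7 by edgeR (2 at an unadjusted p under 0.05, and 0 by DESeq2 and limma voom), with 0.0864% of all genes called. With the Gm26917 level as a covariate, 0 of 7 were called in control livers over months 4, 9 and 12. Month 12 against month 4 also gave 0 of 7 there, with Dhcr7 at 0.58 (adjusted p = 0.693). Of all genes, 1 was called in each of these comparisons. In 56Fe livers 2 of 7 (Cyp51 and Sqle) were called over months 4, 9 and 12 with the covariate. These contrasts were added after the data were seen.

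Comparing irradiated with control livers of the same month gave few calls in these genes. For months 1, 2, 4, 9 and 12 in that order, the members called were 0, 0, 1, 0 and 0 of 7, and 4.6%, 4.37%, 3.6%, 1.66% and 0% of all genes were called. At an unadjusted p under 0.05 the members numbered 0, 0, 1, 5 and 1. DESeq2 called 2 at month 9 (Idi1 and Sqle) and limma voom called 1 (Idi1), and both called 0 at months 1, 2 and 12. Of all genes, DESeq2 called 901 at month 9, where edgeR called 326, and 163 at month 12, where edgeR called 0.

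The arms' libraries were apart for few members. The 3 libraries of one arm lay wholly beyond those of the other for 2 of 7 members at month 1 (Dhcr7 above and Lss below in 56Fe livers) and for 2 at month 2 (Sqle and Lss, both below). This held for 1 member each at months 4 (Dhcr7), 9 (Hmgcs1) and 12 (Fdft1), all above. Over all genes the arms did not overlap for 18.6%, 34.2%, 30.2%, 18.2% and 15.5% at months 1, 2, 4, 9 and 12.

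**Figure D3:**
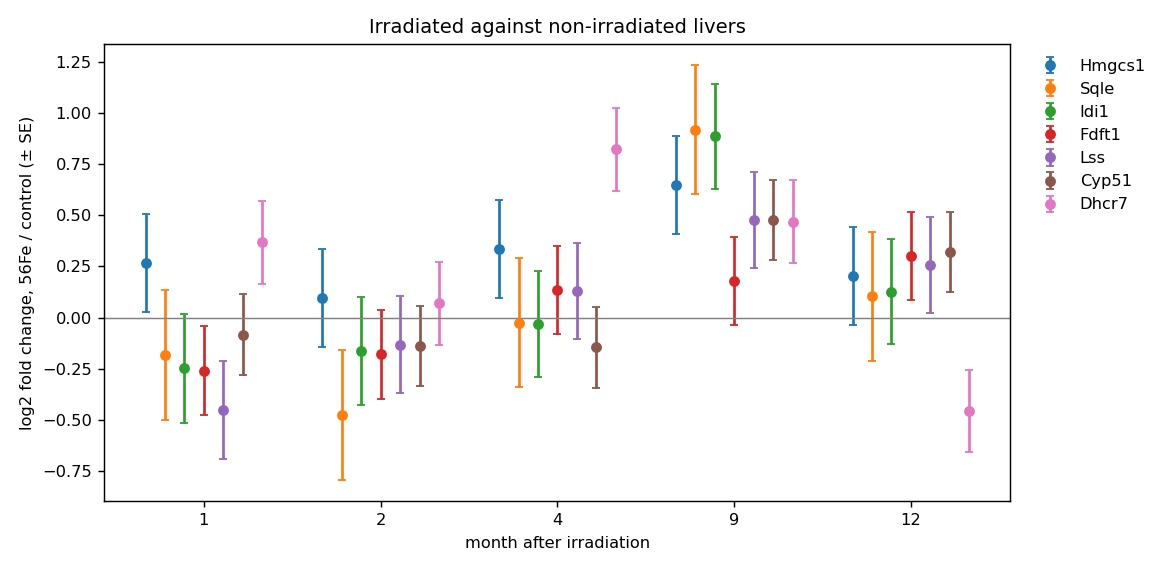
Log2 fold change of 56Fe over control livers (vertical axis) for each member at each month after irradiation (horizontal axis), with bars of 1 SE from the edgeR fit, n = 3 per arm. All 7 values lie above 0 at month 9, and Dhcr7 goes from 0.82 at month 4 to -0.45 at month 12.

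At month 1 the median member was at -0.18, against -0.03 over all genes. Lss, at 49.1, 51.5 and 53.3 CPM in 56Fe and 63.3, 77.7 and 69.5 CPM in control livers, differed by -0.45 ± 0.24 SE on the log2 scale (adjusted p = 0.352). Dhcr7 differed by 0.37 ± 0.20 SE (adjusted p = 0.379). Other genes of sterol balance differed in these libraries. Of 8 further SREBP2 targets, 2 fell: Stard4, a sterol carrier (-1.05 ± 0.21 SE, adjusted p = 0.00398), and Tmem97, which encodes the sigma-2 receptor (-0.53 ± 0.14 SE, adjusted p = 0.0271). Of 10 control genes, 2 fell (Rnf145 and Erlin1, which act in sterol-regulated protein degradation) and Insig2 rose (1.14 ± 0.32 SE, adjusted p = 0.0375). Rnf145 was at -1.05 ± 0.15 SE (adjusted p = 7.27e-05). Of 14 genes of sterol removal, 1 fell: Cyp7a1, which sets the pace of bile acid formation (-3.38 ± 0.64 SE, adjusted p = 0.00415). Of 14 other synthesis enzymes, 0 were called by edgeR and 3 had an unadjusted p under 0.05.

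Clock genes stood in different states in the arms at month 1, with 10 of 16 called, where 4.6% of all genes were. Arntl, which encodes the clock activator BMAL1, was at 25.7, 25.5 and 38.4 CPM in 56Fe livers and at 2.27, 1.91 and 2.44 CPM in controls. Dbp, a clock output gene, had means of 12.2 ± 5.78 CPM in 56Fe and 127 ± 9.04 CPM in control livers (SD, n = 3), with no overlap. The Gm26917 share was 6.36% to 7.57% in 56Fe and 3.04% to 6.09% in control livers. The part of both in the month 1 values was not tested. At month 2, 4 of 16 clock genes were called, against 4.37% of all genes, Arntl overlapped between the arms, and the Gm26917 share was 4.79% to 6.93% against 3.32% to 4.76%.

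At month 2 the median member was at -0.14, against -0.02 over all genes. Sqle, a control point of the later pathway, was at 66.8, 64.6 and 56.6 CPM in 56Fe and at 88.6, 83.9 and 88.9 CPM in control livers. The libraries did not overlap, and the log2 difference was -0.48 ± 0.32 SE (adjusted p = 0.403). With the compared libraries fitted alone, Sqle was called. Of the other synthesis enzymes and further SREBP2 targets 0 were called (3 of 14 and 1 of 8 at an unadjusted p under 0.05). Rnf139, a ubiquitin ligase and 1 of 10 control genes, fell, at -0.43 ± 0.10 SE (adjusted p = 0.0218).

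Dhcr7 was the only member called between the arms, at month 4, where 1.82% of all genes were called higher. It was at 66.0, 91.9 and 62.8 CPM in 56Fe livers and at 34.3, 42.8 and 47.7 CPM in controls. The arms did not overlap, and the log2 difference was 0.82 ± 0.20 SE (adjusted p = 0.025, 1.77-fold higher). The control libraries of month 4 were the lowest 3 of all 30, and the 56Fe libraries of the other months ranged from 66.4 to 127 CPM. The call was lost without any 1 of 5 of the 6 libraries (adjusted p = 0.0584 to 0.151) and kept without 56Fe replicate 3 (adjusted p = 0.0467). The Gm26917 share was 0.827% to 0.985% in 56Fe and 0.469% to 0.508% in control livers of month 4. With that level as a covariate Dhcr7 was at 0.45 (adjusted p = 0.585), and 1 of all genes was called. The shares of the arms did not overlap, so this fit can hardly tell the arm from that level. Of the other members at month 4, Hmgcs1 had the largest log2 difference, 0.34 ± 0.24 SE (adjusted p = 0.478). Rnf139, again 1 of 10 control genes, fell at month 4, at -0.39 ± 0.10 SE (adjusted p = 0.0342). Of 14 other synthesis enzymes, 8 further targets and 14 genes of sterol removal, 0 were called by edgeR (3, 1 and 2 at an unadjusted p under 0.05).

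At the other times Dhcr7 did not keep that difference. Its 56Fe libraries were at 78.2, 83.7 and 80.3 CPM at month 1 and at 82.8, 79.0 and 86.6 CPM at month 2. The controls were at 59.9, 75.1 and 52.7 CPM at month 1 and at 91.4, 68.7 and 76.7 CPM at month 2. Month 9 gave 127, 78.2 and 70.7 CPM against 70.1, 52.1 and 77.2 CPM. Month 12 gave 66.4, 101 and 68.6 CPM against 95.5, 106 and 122 CPM, with a log2 difference of -0.45 ± 0.20 SE (adjusted p = 0.325). The test of whether the irradiation effect differed between months called 1 of 7 members, Dhcr7 (adjusted p = 0.029), where 11% of all genes were called. The Dhcr7 call was lost without any 1 of 5 libraries, which were control replicate 1 and 56Fe replicate 2 of month 4, control replicate 3 of month 12, and 56Fe replicates 1 and 3 of month 12. It was also lost with the Gm26917 level as a covariate, where 574 of all genes were called. At month 12 the Gm26917 share was 0.759% to 1.04% in 56Fe and 1.33% to 2.04% in control livers, with no overlap. Without 56Fe replicate 2 of month 9, Idi1 and Sqle were called too, and without replicate 3, Lss was. Over all genes the count ranged from 1161 to 3238 with 1 library left out, beside 2161 with all libraries. In the main fit the other 6 members had adjusted p-values from 0.138 to 0.696.

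At month 9, 7 of 7 members were higher in 56Fe livers, with a median of 0.48 against 0.00 over all genes, and 0 of 7 passed the adjustment over all genes. Sqle was at 0.92 ± 0.32 SE (adjusted p = 0.134), Idi1 at 0.88 ± 0.26 SE (adjusted p = 0.0739) and Hmgcs1 at 0.65 ± 0.24 SE (adjusted p = 0.157). Lss, Cyp51 and Dhcr7 lay between 0.47 and 0.48, and Fdft1 was at 0.18 ± 0.21 SE (adjusted p = 0.756). Without replicate 1 of the 56Fe livers the median was 0.17, and Fdft1 (-0.20) and Lss (-0.09) were below 0. Without replicate 2 of the same group 3 members were called (Idi1, Sqle and Cyp51). Over all genes the month 9 count was 326 with all libraries and 0 to 1439 with 1 library left out. The count of 3 has no background from its own fit here.

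Other genes of the pathway gave few calls at month 9. Of 14 other synthesis enzymes and 8 further SREBP2 targets, 0 were called by edgeR (1 and 2 at an unadjusted p under 0.05). Erlin1, 1 of 10 control genes called, was at 121, 63.4 and 123 CPM against 55.9, 49.7 and 52.6 CPM. The arms did not overlap, and the log2 difference was 0.96 ± 0.19 SE (adjusted p = 0.0133, and 0.83, adjusted p = 0.114, without replicate 1). Srebf2 was at 0.36 (adjusted p = 0.272) and 0.18 without replicate 1. Insig1 was at 0.44 (adjusted p = 0.316) and 0.051 without it.

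Neither Srebf2 nor Insig1 was called between the arms at any month by edgeR. Srebf2 had log2 fold changes of 0.11, -0.10, 0.47 and -0.28 at months 1, 2, 4 and 12. Insig1 was at -0.09, -0.26 and 0.04 in the first 3 of these and at 0.79 ± 0.22 SE at month 12 (adjusted p = 0.132).

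At month 12 the member median was 0.20, with 6 of 7 values above 0, against -0.02 over all genes. Fdft1 was at 157, 173 and 146 CPM in 56Fe and at 134, 112 and 140 CPM in control livers, with a log2 difference of 0.30 ± 0.21 SE (adjusted p = 0.555). Its libraries did not overlap. Averaged over the 5 months, 0 of 7 members were called by edgeR (2 at an unadjusted p under 0.05, DESeq2 1, limma voom 0), where 5.26% of all genes were called. Hmgcs1 was at 0.31 ± 0.11 SE (adjusted p = 0.0835) and Dhcr7 at 0.25 ± 0.09 SE (adjusted p = 0.0903). With upper quartile factors both were called. The member median was 0.086, and 0.022 without 56Fe replicate 1 of month 9, with 0 of 7 called.

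Of the 7 members, 6 rose and fell together over the groups and Dhcr7 took another course, while within groups Dhcr7 moved with the others. Over the 30 libraries, Pearson's r of log2 CPM was 0.80 to 0.95 among the 15 pairs without Dhcr7, with a median of 0.87. The 6 pairs that hold Dhcr7 had r of 0.14 to 0.44. Over months 4, 9 and 12 alone they had 0.28 to 0.69, and the other 15 pairs had 0.67 to 0.94. All pairs share the same libraries and their scaling. Each library was then taken as a deviation from its group mean. For the pairs with Dhcr7 r was 0.64 to 0.80 (median 0.76), and for the others 0.38 to 0.86 (median 0.66). Without 56Fe replicate 1 of month 9, r was 0.73 to 0.94 for the 15 pairs without Dhcr7 and -0.071 to 0.30 for those with it. The deviations then gave -0.18 to 0.79 and 0.47 to 0.73.

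**Figure D4:**
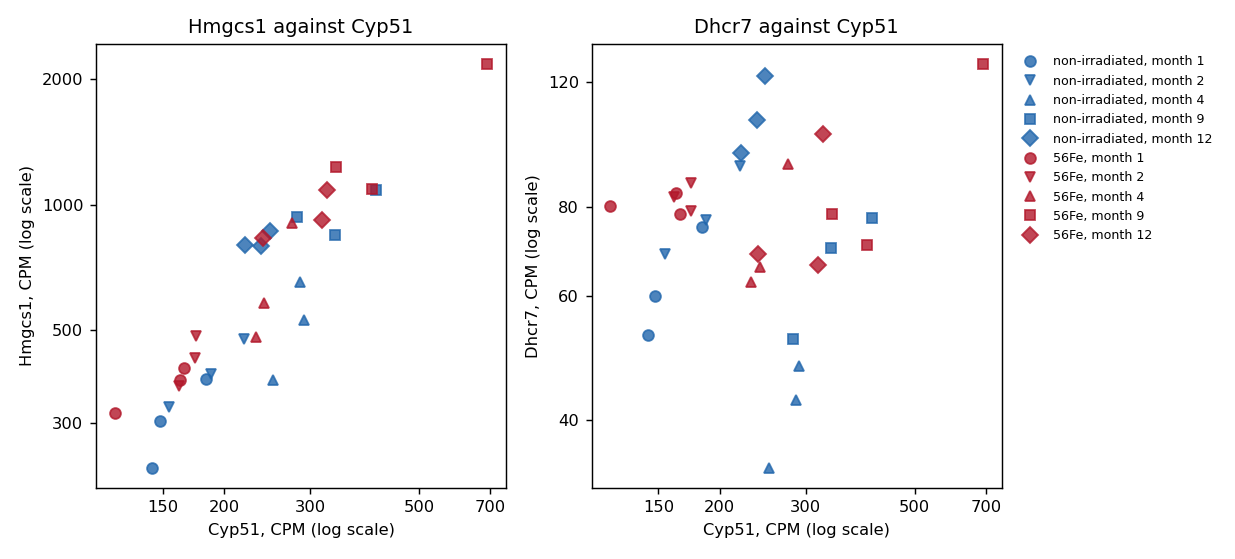
Hmgcs1 (left) and Dhcr7 (right) against Cyp51 in CPM, all axes logarithmic. Points are the 30 libraries, colours are arms and shapes are months. Hmgcs1 rises with Cyp51 across libraries, while Dhcr7 is at 34.3 to 47.7 CPM in the control livers of month 4, which have middle Cyp51 levels.

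The genes most like the mean of the members over the 30 libraries were Hsd17b7 (r = 0.92), Msmo1 (r = 0.91), Arl6ip5 (r = 0.90), Nfyb (r = 0.90) and Nsdhl (r = 0.89). Tmem170b, Btc, Srxn1, Pmvk and Parp3 followed, with r of 0.86 to 0.88. Of these 10 genes, 4 (Hsd17b7, Msmo1, Nsdhl and Pmvk) are in the list of 14 other synthesis enzymes. Nfyb encodes a subunit of NF-Y. For Dhcr7 alone, a measure added after its values were seen, the gene most alike was Srebf2 (r = 0.87), and among the other synthesis enzymes r with Dhcr7 did not exceed 0.29. Srebf2 was at 37.0, 44.9 and 49.9 CPM in control livers of month 4, against 61.5 to 68.5 CPM at month 2 and 70.7 to 92.4 CPM at month 12. In 56Fe livers of month 4 it was at 64.9, 63.2 and 54.8 CPM, with a log2 difference of 0.47 ± 0.17 SE between the arms (adjusted p = 0.11).

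Other enzymes of the pathway also changed over time. Of 14 other synthesis enzymes, 12 changed over the months in control and 11 in 56Fe livers, where 58.3% and 59% of all genes were called. From month 2 to month 4, 7 rose and 0 fell in each arm, where 20.3% and 21.4% of all genes were called higher. From month 4 to month 9, 3 of 14 rose in 56Fe livers (Msmo1, Hsd17b7 and Pmvk), where 2.38% of all genes were called higher, and 0 of 14 were called without replicate 1 of month 9. Msmo1 was at 1.13 ± 0.23 SE (adjusted p = 0.00997) and Hsd17b7 at 0.90 ± 0.21 SE (adjusted p = 0.0157) with all libraries. In control livers 0 of 14 were called over that step by edgeR (4 at an unadjusted p under 0.05). From month 9 to month 12 in control livers 2 of 14 fell: Tm7sf2, a sterol reductase (-0.71 ± 0.17 SE, adjusted p = 0.00586), and Ebp, a sterol isomerase (-0.55 ± 0.16 SE, adjusted p = 0.019). Over that step 15.9% of all genes were called in these livers, and 10.1% were called higher. Fitting the Gm26917 level left 0 of all genes called there.

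Of 8 further SREBP2 targets, 6 changed over the months in each arm, beside 58.3% and 59% of all genes. Insig1 rose from month 4 to month 9 in 56Fe livers, by 0.84 ± 0.22 SE (adjusted p = 0.0266), and 0 of 8 were called without replicate 1 of month 9. Insig1 fell from month 9 to month 12 in control livers (-0.94 ± 0.22 SE, adjusted p = 0.00416), and Srebf2 rose (0.49 ± 0.17 SE, adjusted p = 0.0433), the same direction as Dhcr7. Of 10 fatty acid synthesis genes, 6 rose from month 2 to month 4 in control livers, with a list median of 1.24, and 4 rose and 1 fell in 56Fe livers, beside the same 20.3% and 21.4% of all genes called higher.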

How the data were processed

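Liver RNA of 30 mice was depleted of ribosomal RNA and sequenced as paired 50-base reads, per the labels. Reads were aligned to GRCm38 with STAR 2.5.3a, whose GeneCounts mode on Gencode M14 gave the deposited raw counts per gene. The strand column is not stated, and the series text gives more reads than the table totals, a difference not resolved. Symbols, exon lengths and overlaps came from Gencode M21. The tests were run on these counts in R 4.3.3 with the package edgeR, version 4.0.16 (filterByExpr, minimum count 10 and total 15, TMM, robust quasi-likelihood fit with 1 coefficient per group over all 30 libraries), adjusted over 19685 genes. The fit was tested on simulated data. Of 30 pairs of libraries within groups, none was identical. P-values measure the spread between samples labelled biological replicates.

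Members and lists were chosen with earlier results of these data known. Named genes were the 7 members, Srebf2 and Insig1 in each irradiation comparison, the called genes of the lists (up to 4 of smallest adjusted p), the 10 genes most like the members, and Arntl, Dbp and Gm26917 beside months 1 and 2. Other genes of the rule and lists are not reported here, and list counts leave them out. Likeness used log2 of CPM plus 0.5. Alternatives were RLE and upper quartile factors, no filter, 1 CPM in 3 libraries, a replicate block, the Gm26917 level as covariate, limma voom 3.58.1, DESeq2 1.42.0, the compared libraries alone, and each library left out. Markers of Kupffer, endothelial, stellate, lymphoid and erythroid cells were summed as well. Their sums ranged over all libraries from 97.9 to 669 CPM, 236 to 435 CPM, 217 to 562 CPM, 19.3 to 116 CPM and 54.8 to 433 CPM.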

Additional observations from a re-analysis of the deposited data

Results flagged for a closer look

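The irradiation effect on Dhcr7 was called as differing between months (interaction F-test in edgeR, adjusted p = 0.029). The call was lost with the Gm26917 level as a covariate, and when single libraries named above were left out. For months 1, 2, 4, 9 and 12, in that order, its log2 fold change was 0.37, 0.07, 0.82, 0.47 and -0.45.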

How the results depend on the processing

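Each library was left out in turn, and the count of members called moved most for contrasts that hold month 9 or month 4. For 56Fe against control it ranged from 0 to 1 at month 4, 0 to 3 at month 9 and 0 to 3 for the difference between months. In 56Fe livers it ranged from 1 to 3 for month 4 minus 2, 0 to 6 for month 9 minus 4, 0 to 2 for month 12 minus 9, and 0 to 5 over months 4, 9 and 12. In control livers it ranged from 1 to 3 for month 4 minus 2 and 0 to 1 for month 12 minus 9. It ranged from 1 to 2 for month 12 minus 4 and 1 to 2 over months 4, 9 and 12. Counts over all genes moved too. They ranged from 91 to 386 for the month 4 effect, 0 to 1439 for the month 9 effect and 31 to 1821 for 56Fe month 9 minus 4.

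With the Gm26917 covariate, 0 members were called for the month 4 effect, the difference between months, both month 4 minus 2 steps, the change over months in 56Fe livers, control month 12 minus 9, control month 12 minus 4 and control months 4, 9 and 12. It called 3 for the change over months in control livers, 3 for 56Fe month 9 minus 4, and 2 for 56Fe months 4, 9 and 12. Of all genes it called 1 for the month 4 effect, 574 for the difference between months and 0 for both month 4 minus 2 steps. It called 104 and 2409 for the change over months in 56Fe and control livers. For control month 12 minus 9 it called 0, and 1 each for control month 12 minus 4 and control months 4, 9 and 12. The Gm26917 level nearly follows the split between early and late months. The compared libraries alone gave 1 for the month 2 effect, 5 for 56Fe month 4 minus 2, 0 for 56Fe month 9 minus 4, 4 and 0 for months 4, 9 and 12 in control and 56Fe livers, and 1 for control month 12 minus 4. Limma voom gave 1 for the month 9 effect, 5 for 56Fe month 4 minus 2, 2 for control month 12 minus 9, and 5 for control months 4, 9 and 12. Of all genes limma voom called 10355 for 56Fe month 4 minus 2, where the main fit called 8067. It called 4155 for control month 12 minus 9, where the main fit called 3131. DESeq2 gave 2 for the month 9 effect, 1 for the mean over months, and 2 for month 12 minus 9 in each arm. Upper quartile factors gave 2 for the mean over months and 1 for each month 4 minus 2 step, and RLE factors 1 for 56Fe month 4 minus 2 and 1 for control month 12 minus 4. Without a filter the count was 1 for 56Fe month 12 minus 9, for control months 4, 9 and 12, and for control month 12 minus 4. With the 1 CPM filter it was 1 for the month 9 effect, 2 for control month 12 minus 9 and 1 for control month 12 minus 4. Months 4, 9 and 12 alone, in place of all months, gave 2 for control livers. Of all genes, the compared libraries alone called 0 for 56Fe month 9 minus 4 and 0 for 56Fe months 4, 9 and 12. DESeq2 called 901 of all genes for the month 9 effect and 509 for 56Fe month 12 minus 9. Where no count over all genes is given for a setting, the count of members has no background here. The cause of the differences between settings was not tested.

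Of 42 irradiation differences of members, 14 changed sign in some setting, and 0 of these 14 were called. At month 4, Sqle was at 0.062 with upper quartile factors, 0.062 with limma voom and 0.035 with the compared libraries alone, and from -0.18 to 0.16 with libraries left out. Idi1 was at 0.049, 0.0091 and 0.024 in the same settings and from -0.18 to 0.054. Fdft1 ran from -0.040 to 0.26 and Lss from -0.0082 to 0.30 with libraries left out, and Lss was at -0.16 with the covariate. At month 9, Fdft1 was at -0.14 with limma voom and from -0.20 to 0.44, and Lss from -0.090 to 0.76, with libraries left out. Dhcr7 in control livers was at 0.45 for month 4 minus 2 and at -0.11 for month 12 minus 9 with the covariate.

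Replicate numbers did not pair the samples: the same-number r was over 0.1 in 6 of 15 pairs, and the own number was highest in 7 of 15. With the replicate block 3 members were called over months 4, 9 and 12 in 56Fe livers in place of 4, and the count in the other comparisons was the same as without it.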
